A study of Mus musculus with 9 samples.

Results

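Hematopoietic stem cells (HSCs) of old mice carry a recurrent set of transcripts that studies of ageing have found to be more abundant than in young HSCs. A list of 32 genes reported as higher, or as changed, in HSCs of old mice was followed across 3 Bcl11a genotypes. The direction reported with age is not given gene by gene here. It was drawn up from what other studies reported and not from these arrays, although earlier results of these data were known when it was made. Each gene was read from the probe set that carries its symbol alone and has the highest mean over 9 arrays. This gave values for 31 of the 32 genes, among 22180 genes in all; Cd38 was not analysed here. The array levels are log2 values, and every comparison below is a difference of log2 levels between genotypes of mice of the same age.

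The cells came from bone marrow of mice aged 6 to 8 months and were sorted as lineage-negative, Sca-1 and Kit positive, CD48 and Flt3 negative and CD150 positive cells, from a YFP-positive or a YFP-negative fraction that the labels do not assign to arrays. All mice received 5 doses of poly(I:C), which induces interferon and through it the Mx1-Cre transgene. WT mice were Bcl11a fl/fl without Mx1-Cre, heterozygously deleted (Het) mice were Bcl11a fl/wt with Mx1-Cre, and homozygously deleted (KO) mice were Bcl11a fl/fl with Mx1-Cre, with 3 biological replicates each on 1 array apiece. Presence of Cre and loss of Bcl11a therefore set WT apart together and cannot be told apart, and no group of old mice was analysed here.

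As HSCs age, they become more numerous, lean towards platelet and myeloid output and lose lymphoid output. Many of the transcripts that mark this state encode surface and adhesion proteins that HSCs share with platelets and endothelium, such as P-selectin; others encode enzymes of detoxification, stress proteins and proteins of membrane traffic. Bcl11a encodes a zinc finger repressor that lymphoid development needs, and the title of the series speaks of an aging-like phenotype in its absence.

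Some facts of the arrays bear on what follows. Over all probe sets, Pearson's r between replicate arrays of a genotype was 0.862 to 0.932. Bcl11a itself read 7.82 and 7.90 on KO replicates 1 and 2 but 8.66 on the array labelled KO replicate 3, inside the WT range of 8.38 to 8.81. The Het arrays read 8.34, 8.37 and 8.89, so Het replicate 3 was above every WT array, and the Het minus WT difference was −0.11 (adjusted p = 0.993). Whether the probes lie in the deleted part was not analysed here. Of the sort genes, Kit (9.16 in WT, 9.43 in Het, 9.55 in KO) was high on all arrays, and Flt3 (4.78, 3.99 and 3.72) and Cd48 (4.34, 4.41 and 4.24) were low. Slamf1, which encodes CD150, averaged 5.34 ± 1.19 on WT, 7.09 ± 0.416 on Het and 6.97 ± 0.844 on KO arrays (SD, n = 3). The list of HSC gate genes read below also held Cd34 and Procr, which this sort did not use. Cd34 averaged 7.94 ± 0.140 in WT, 8.29 ± 0.563 in Het and 9.56 ± 0.507 in KO. Its KO arrays lay above all WT and all Het arrays (KO minus WT, limma adjusted p = 0.206). Procr averaged 5.98 ± 0.815, 6.55 ± 0.205 and 6.43 ± 1.19, and its genotypes overlapped. Xist and Y-linked transcripts put 2 WT, 1 Het and 1 KO array in females. KO replicate 3 was the female KO array, so sex and this array cannot be told apart within KO. The female Het array was Het replicate 3, and the male WT array was WT replicate 2. Each difference given below within a sex therefore has a single array on at least 1 side. Y-linked transcripts read 2.22 to 3.32 on female arrays and Xist 3.58 to 4.22 on male arrays, so a level up to 4.22 can be that of an absent transcript.

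RefSeq promoter windows (assembly GRCm38.p6, the 250 bases before a start site) were found for 25 of the 31 measured genes. The windows of Neo1, Selp and Clca3a1, members with the larger KO minus WT differences below, are shown beside those of Aldh1a1, the member with the lowest KO value relative to WT, and of Dnm3, the member whose window holds TGACCA, the motif known for BCL11A. Sequences run 5′ to 3′, and capitals mark TGACCA in Dnm3 and the GATA motif AGATAA in Aldh1a1.
Neo1 (chr9:59036442-59036691, minus strand): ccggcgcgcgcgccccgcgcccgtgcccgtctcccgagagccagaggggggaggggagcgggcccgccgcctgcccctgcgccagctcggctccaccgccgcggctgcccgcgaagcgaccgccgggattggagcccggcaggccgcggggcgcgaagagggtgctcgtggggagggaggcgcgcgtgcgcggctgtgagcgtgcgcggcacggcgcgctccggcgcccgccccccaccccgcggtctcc
Selp (chr1:164115014-164115263, plus strand): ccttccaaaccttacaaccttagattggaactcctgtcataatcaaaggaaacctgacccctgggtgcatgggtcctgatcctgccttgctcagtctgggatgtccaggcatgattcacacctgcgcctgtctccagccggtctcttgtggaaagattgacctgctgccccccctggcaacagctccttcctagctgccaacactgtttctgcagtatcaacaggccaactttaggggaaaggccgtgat
Clca3a1 (chr3:144760978-144761227, minus strand): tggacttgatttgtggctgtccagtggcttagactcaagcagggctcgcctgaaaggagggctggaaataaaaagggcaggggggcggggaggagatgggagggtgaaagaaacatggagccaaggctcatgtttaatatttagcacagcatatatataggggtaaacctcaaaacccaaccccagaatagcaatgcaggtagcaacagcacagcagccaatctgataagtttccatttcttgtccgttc
Aldh1a1 (chr19:20601718-20601967, plus strand): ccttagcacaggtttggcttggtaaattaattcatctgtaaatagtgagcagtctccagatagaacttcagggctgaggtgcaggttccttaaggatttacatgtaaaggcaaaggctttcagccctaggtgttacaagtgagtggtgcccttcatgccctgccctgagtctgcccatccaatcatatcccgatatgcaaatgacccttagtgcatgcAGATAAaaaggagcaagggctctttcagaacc
Dnm3 (chr1:162478035-162478284, minus strand): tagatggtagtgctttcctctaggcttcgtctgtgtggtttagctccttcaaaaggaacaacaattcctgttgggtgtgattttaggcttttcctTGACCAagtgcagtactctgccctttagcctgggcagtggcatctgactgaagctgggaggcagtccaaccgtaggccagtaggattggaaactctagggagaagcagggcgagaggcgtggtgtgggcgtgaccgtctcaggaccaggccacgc

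The Neo1 window was 83.2% G or C with 45 CG pairs, against 53.6% and 3 pairs for Selp, 48.8% and 3 for Clca3a1, 46.4% and 1 for Aldh1a1, and medians of 52.4% and 6 over 32851 windows. These windows thus differed in base composition. Jam2, whose KO minus WT difference was second to that of Neo1, is not among them. TGACCA or its complement TGGTCA occurred in 1 of the 31 member windows (several members have more than 1) and in 11.4% of all windows. AGATAA or TTATCT occurred in 2, those of Aldh1a1 and Art4, and in 10.0% of all. The AP-1 motif TGACTCA or TGAGTCA occurred in 1, another Aldh1a1 window, and in 4.46% of all. No member window held more than 1 of these 3 motifs.

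The comparison of KO with WT asks how these genes read when both Bcl11a alleles are deleted. The guidance receptor gene Neo1 was 5.5-fold higher in KO cells, the adhesion molecule gene Jam2 3.70-fold, the chloride channel regulator gene Clca3a1 3.51-fold and the P-selectin gene Selp 2.86-fold. The retinaldehyde dehydrogenase Aldh1a1 went the other way and was 2.27-fold lower. Of the 30 members that passed the filter on low levels, 22 were higher in KO and 8 lower, with a median difference of 0.37, where 45.5% of all 16636 genes tested were higher and their median was −0.04. No member passed the test over all genes (limma, Benjamini-Hochberg adjusted p under 0.05), which 7 genes or 0.0421% did. At an unadjusted p under 0.05, 5 members were higher and 2 lower, against 5.4% and 2.81% of all genes. The WT and KO arrays did not overlap for 6 members that were higher and 2 that were lower, against 6.51% and 7.32% of all genes. Without KO replicate 3 the median was 0.53, 10 members were higher and 1 lower at that unadjusted threshold, and Neo1 passed over all genes. In that fit 6.37% of all genes were higher and 2.98% lower at the unadjusted threshold, 45.5% had a difference above 0, and 15 genes or 0.0902% passed. The median was 0.19 when each array's interquartile range entered the fit.

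The comparison of Het with WT asks the same for mice labelled as having a single allele deleted, whose Bcl11a levels overlapped those of WT. Neo1 was 3.75-fold, Plscr2 2.78-fold, Selp 2.51-fold and Clca3a1 2.51-fold higher in Het cells, followed by Jam2 (2.20-fold) and Alcam (2.17-fold). Gpr183, an oxysterol receptor that guides lymphocytes, was 2.29-fold lower. In all, 23 of the 30 members were higher and 7 lower with a median of 0.43, where 48.4% of all genes were higher and their median was −0.01. No member and no gene passed over all genes with limma (0%). At an unadjusted p under 0.05, 6 members were higher and 1 lower, against 3.12% and 1.77% of all genes. The arrays did not overlap for 6 members higher and 1 lower, against 4.51% and 3.9%. Without WT replicate 1 the median was 0.29.

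The direct comparison of KO with Het asks what the second allele adds. The members divided evenly, 15 higher and 15 lower, with a median of −0.01, where 47% of all genes were higher and their median was −0.02. No member and no gene passed with limma (0%). At an unadjusted p under 0.05, 3 members were higher (Jam2, Osmr and Gpr183) and 2 lower (Aldh1a1 and Art4), against 2.61% and 1.95% of all genes. The arrays did not overlap for Jam2 on the higher side and for Aldh1a1 and Art4 on the lower, against 4.42% and 5.4%. Without KO replicate 3, 18 members were higher, the median was 0.11, and 6 members were higher and 1 lower at the unadjusted threshold. Over all genes in that fit 45.8% were higher with a median of −0.04, 3.37% were higher and 1.65% lower at that threshold, and none passed (0%). The comparisons with WT share the WT arrays, and KO minus Het shares arrays with each of them, so their values are given side by side and are not independent of each other. Because 3 arrays against 3 allow no exact two-sided permutation p below 0.1, that p is 0.1 wherever 2 groups do not overlap.

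**Figure D1:**
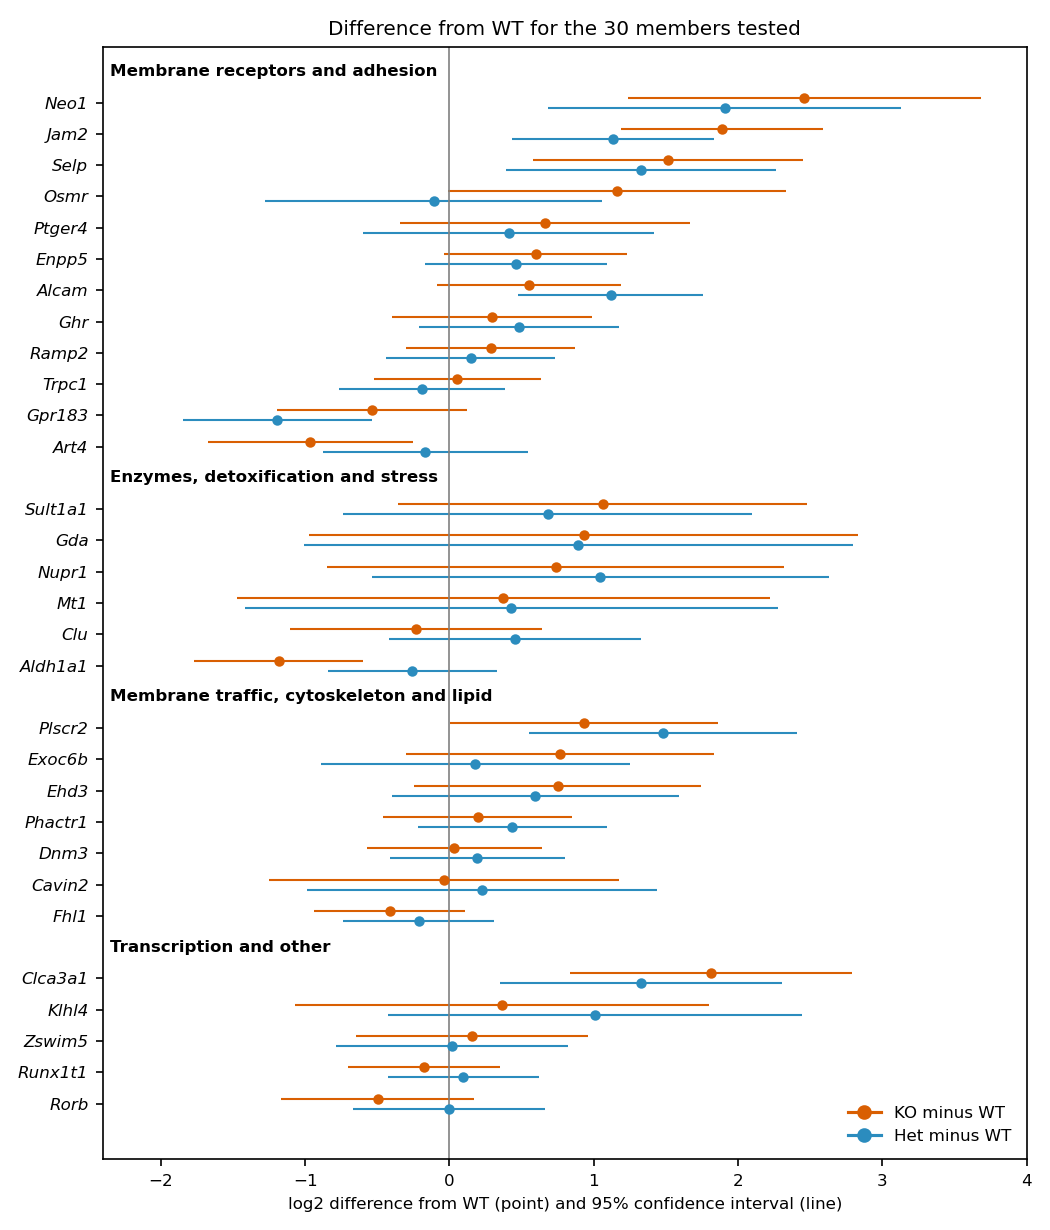
Log2 difference from WT (points) with its 95% confidence interval from limma (lines) for the 30 members tested, KO minus WT in orange and Het minus WT in blue, grouped by role. Neo1 (2.46 in KO, 1.91 in Het), Jam2 and Selp lie to the right of 0 in both genotypes, while Aldh1a1 (−1.18) and Art4 (−0.96) lie to the left in KO, and Gpr183 (−1.19) does so in Het.

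Receptors and adhesion molecules, with which Art4 and Enpp5 were grouped, made up 12 tested members. Of these, 10 were higher in KO than in WT (median 0.57) and 8 in Het (median 0.44). Jam2 encodes a junctional adhesion molecule of endothelium and HSCs. It read 4.15, 5.28 and 4.31 on WT arrays, 5.45, 5.70 and 6.00 on Het arrays and 6.65, 6.49 and 6.26 on KO arrays. All WT arrays lay below all Het arrays and all Het arrays below all KO arrays. The KO minus WT difference was 1.89 (SE 0.315, adjusted p = 0.101), the smallest adjusted p of any member, and Het minus WT was 1.14 (adjusted p = 0.749). KO minus Het was 0.75, with a 95% interval of 0.05 to 1.45. KO minus WT was 2.03 among females and 1.29 among males, and Het minus WT 1.77 and 0.29.

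Neo1, the netrin and repulsive guidance receptor neogenin, had the widest differences from WT of all members in both genotypes. WT arrays read 4.24, 5.01 and 4.74, Het arrays 6.37, 7.07 and 6.27, and KO arrays 8.08, 7.66 and 5.63. Every Het and KO array was above every WT array, but KO replicate 3 was below the Het arrays. KO minus WT was 2.46 (SE 0.551, adjusted p = 0.259) and Het minus WT 1.91 (adjusted p = 0.758). Without KO replicate 3 the KO difference was 3.21 with an adjusted p of 0.0306, the only setting among those tried in which a member passed over all genes. It was 1.14 within female and 2.86 within male mice.

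Selp encodes P-selectin, the adhesion molecule that platelets and endothelium bring to their surface on activation. It read 7.64, 7.40 and 6.09 in WT, 8.17, 8.24 and 8.71 in Het, and 8.84, 8.92 and 7.92 in KO cells. All arrays of both deleted genotypes were above all WT arrays. The differences were 1.52 for KO minus WT (SE 0.422, adjusted p = 0.410) and 1.33 for Het minus WT (adjusted p = 0.872), while KO minus Het was 0.19 with an interval of −0.75 to 1.12. Alcam, the immunoglobulin-family adhesion molecule CD166, was highest in Het cells. It read 5.16, 5.70 and 5.71 in WT, 6.90, 6.82 and 6.20 in Het, and 6.45, 5.98 and 5.79 in KO cells. Both deleted genotypes lay above WT without overlap, by 1.12 in Het (SE 0.288, adjusted p = 0.731) and 0.55 in KO cells (adjusted p = 0.645).

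Osmr, the receptor subunit for oncostatin M, separated the KO arrays from each other. KO replicates 1 and 2 read 5.28 and 4.94, and KO replicate 3 read 3.08. WT arrays read 3.75, 3.37 and 2.70 and Het arrays 3.51, 3.28 and 2.70, levels at which an absent transcript can read. KO minus Het was 1.27 with all arrays and 1.95 without KO replicate 3. Ptger4, the EP4 receptor for prostaglandin E2, had the same feature, at 6.91 and 6.96 on KO replicates 1 and 2 and 5.05 on KO replicate 3, where WT arrays read 5.41 to 5.81 and Het arrays 5.74 to 6.24. Among females its KO value was −0.56 from WT, and among males 1.23.

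Members of this group that went the other way included Gpr183 and Art4. Gpr183 read 6.16, 6.03 and 6.46 in WT, 4.78, 5.28 and 5.01 in Het, and 6.15, 5.79 and 5.10 in KO cells. The Het arrays were all below the WT arrays, with a difference of −1.30 among females and −1.0 among males, whereas the KO arrays overlapped WT. Het minus WT was −1.19 (SE 0.295, adjusted p = 0.731) and KO minus WT −0.54 (adjusted p = 0.651), or −0.25 without KO replicate 3. Art4 encodes the ADP-ribosyltransferase of the Dombrock blood group and read 6.46, 5.85 and 6.77 in WT, 6.52, 5.96 and 6.10 in Het, and 5.86, 5.37 and 4.96 in KO cells. KO arrays were below all Het arrays, and KO replicate 1 was just above WT replicate 2. The difference of KO from WT was −0.96 (SE 0.319, adjusted p = 0.514), with −1.66 among females and −0.23 among males.

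The other members grouped with the receptors had no unadjusted p under 0.05 with limma. Enpp5, a pyrophosphatase family member, read 7.34 to 8.43 in WT and 8.41 to 8.55 in KO cells (difference 0.60, adjusted p = 0.628, and 0.33 without WT replicate 1). Ghr, the growth hormone receptor, read 3.77 to 4.97 over all arrays, with differences of 0.30 in KO and 0.48 in Het; without WT replicate 1 these were 0.66 and 0.84. Ramp2, the partner of the adrenomedullin receptor, read 4.34 to 5.19 (0.29 and 0.15). The cation channel gene Trpc1 read 2.98 to 3.9, within the range of absent transcripts, with differences of 0.05 and −0.19. Bmpr1a, a type I receptor for bone morphogenetic proteins, read 2.78 to 3.33 and had a mean of 2.96, which put it as the sole member under the filter on low levels at 3.31.

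**Figure D2:**
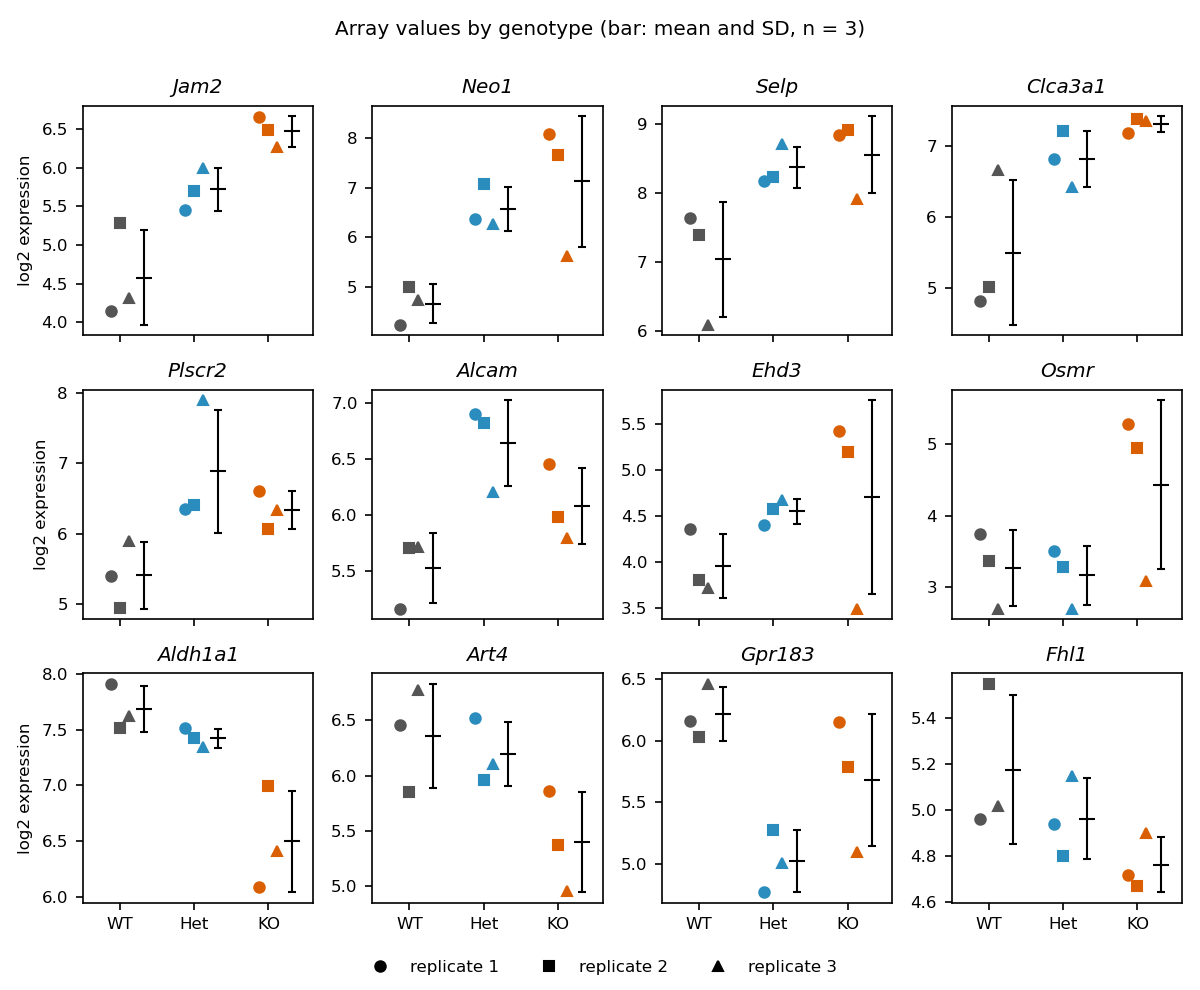
Log2 expression (vertical axes, each with its own range) of 12 members on each array by genotype; marker shape gives the replicate number and the black bar the mean with SD of 3 arrays. Jam2 steps up from WT to Het to KO without overlap, Osmr, Ehd3 and Neo1 are lower on KO replicate 3 than on the other KO arrays, and Aldh1a1 is below WT on every KO array.

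Of the 6 enzymes and stress genes, 4 were higher in KO than in WT and 5 in Het, with medians of 0.56 and 0.57. Aldh1a1 and Clu were lower in KO, and Aldh1a1 was lower in Het as well. The Aldh1a1 dehydrogenase oxidises retinaldehyde and other aldehydes, and its activity is used to enrich primitive blood cells. It read 7.91, 7.51 and 7.62 in WT, 7.51, 7.42 and 7.34 in Het, and 6.09, 6.99 and 6.41 in KO cells. All KO arrays were below all WT and all Het arrays, with differences of −1.18 from WT (SE 0.263, adjusted p = 0.259) and −0.93 from Het (adjusted p = 0.998). Het minus WT was −0.26, with an interval of −0.84 to 0.33. Within sexes the difference from WT was −1.35 among females, −0.97 among males, and −1.14 without KO replicate 3.

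Nupr1 and Sult1a1 lie next to each other on chromosome 7 with 1 protein-coding gene between them, and their values resembled each other on the WT and KO arrays but not on the Het arrays. Nupr1, a small nuclear stress-response protein, read 6.11, 8.08 and 6.81 in WT, 8.67, 8.10 and 7.37 in Het, and 8.91, 8.24 and 6.06 in KO cells. Sult1a1, a sulfotransferase of phenols and drugs, read 6.41, 8.42 and 6.80 in WT, 8.57, 6.77 and 8.33 in Het, and 8.88, 8.67 and 7.27 in KO cells. Both had 1 high WT array, replicate 2, and their lowest KO array was replicate 3. KO minus WT was 0.74 (adjusted p = 0.771) and 1.06 (adjusted p = 0.672); without KO replicate 3 the values were 1.57 and 1.56, and without WT replicate 1 they were 0.29 and 0.66.

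Gda, the guanine deaminase of purine breakdown, had the widest spread of any member within a genotype, at 3.81, 8.24 and 5.91 on WT arrays. KO arrays read 6.81, 7.03 and 6.91. The difference of 0.93 (SE 0.857) turned to −0.16 without WT replicate 1, and it was 2.05 within female and −1.32 within male mice. Mt1, a metal-binding metallothionein, read 6.15 to 8.32 in WT, 6.28 to 9.26 in Het and 6.58 to 8.82 in KO cells, so that the genotypes overlapped; KO minus WT was 0.37, and −0.30 without KO replicate 3. Clu, the extracellular chaperone clusterin, read 5.06 to 5.24 in WT, 5.06 to 6.10 in Het and 4.03 to 5.51 in KO cells, with differences of −0.23 in KO (0.22 without KO replicate 3) and 0.46 in Het.

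Proteins of membrane traffic, cytoskeleton and lipids made up 7 tested members, of which 5 were higher in KO (median 0.20) and 6 in Het (median 0.23). Plscr2, a phospholipid scramblase, read 5.40, 4.94 and 5.89 in WT, 6.35, 6.41 and 7.90 in Het, and 6.61, 6.07 and 6.34 in KO cells. Neither deleted genotype overlapped WT, and Het replicate 3 stood above the rest. The differences from WT were 1.48 in Het (SE 0.418, adjusted p = 0.758) and 0.93 in KO (adjusted p = 0.607). Ehd3, an endosomal recycling ATPase, read 4.36, 3.80 and 3.71 in WT, 4.40, 4.58 and 4.67 in Het, and 5.43, 5.20 and 3.49 in KO cells. Its KO replicates 1 and 2 were above, and replicate 3 below, every other array. Its difference from WT in KO was thus 0.75 with all arrays and 1.36 without KO replicate 3, and it was −0.55 within female and 1.51 within male mice.

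Fhl1, a LIM-domain protein of muscle and blood cells, was lower on all KO arrays (4.72, 4.67 and 4.90) than on WT arrays (4.96, 5.55 and 5.02), while Het arrays, at 4.94, 4.80 and 5.15, overlapped both. The KO minus WT difference was −0.41 (SE 0.236, adjusted p = 0.659). Exoc6b, a subunit of the exocyst that tethers vesicles, read 5.21 to 6.79 in WT and 6.44 to 7.68 in KO cells (0.77, adjusted p = 0.687; 0.27 without WT replicate 1). Phactr1, a regulator of actin and protein phosphatase 1, read 3.91 to 4.96 over all arrays (0.20 in KO, 0.44 in Het), and Cavin2, a caveola coat protein, 5.60 to 7.59 (−0.04 and 0.23). Dnm3, a dynamin GTPase, read 4.70 to 5.73, with a KO minus WT difference of 0.03 and an interval of −0.57 to 0.64. Its other probe set gave −0.29.

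Clca3a1 stood out among the remaining 5 members, of which 3 were higher in KO and 4 in Het. It read 4.81, 5.01 and 6.67 in WT, 6.82, 7.22 and 6.43 in Het, and 7.18, 7.39 and 7.36 in KO cells. KO arrays were tightly grouped above all WT arrays, while WT replicate 3 overlapped Het. KO minus WT was 1.81 (SE 0.440, adjusted p = 0.296) and Het minus WT 1.33 (adjusted p = 0.889). Klhl4, a kelch-repeat protein, read 4.13 to 5.77 in WT and 5.42 to 6.41 in Het; its KO arrays read 5.94, 6.40 and 3.77. Its KO minus WT difference was 0.36 with all arrays and 1.16 without KO replicate 3. The nuclear receptor gene Rorb (2.61 to 3.82) and the corepressor gene Runx1t1 (3.52 to 4.14) read within the range of absent transcripts on all arrays, and Zswim5, a zinc finger gene, read 3.60 to 4.85. Their KO minus WT differences were −0.50, −0.18 and 0.15.

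The array labelled KO replicate 3 was therefore a recurring exception. It was the lowest KO array for 16 of the 30 members, where it was lowest for 35.3% of all genes tested. For 8 members it lay more than 1 below both other KO arrays, which was so for 4.54% of all genes: Nupr1, Sult1a1, Clu, Neo1, Ehd3, Osmr, Klhl4 and Ptger4. The mean over the 30 members was 6.10 and 6.01 on KO replicates 1 and 2 and 5.46 on replicate 3, with WT arrays at 5.24, 5.58 and 5.39 and Het arrays at 5.99, 5.70 and 5.92. KO replicates 1 and 2 were both above the highest WT array for 14 members (13.3% of all genes), and KO replicate 3 was so for 9 (24.1% of all genes). Jam2, Clca3a1, Plscr2 and Aldh1a1 differed from WT by similar amounts with and without it: 1.89 and 1.99, 1.81 and 1.79, 0.93 and 0.93, and −1.18 and −1.14. The part of sex or of the Bcl11a level in the values of this array was not tested.

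**Figure D3:**
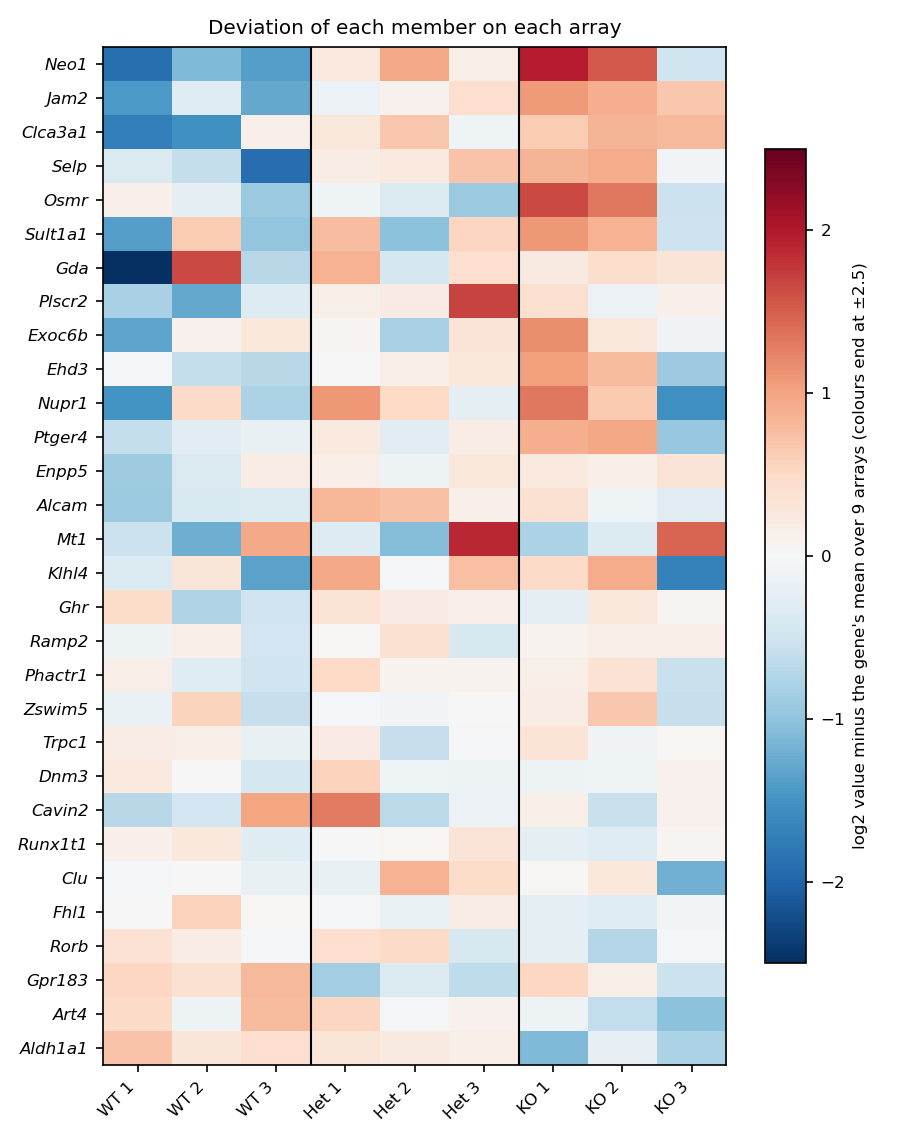
Log2 value of each of the 30 members minus its mean over 9 arrays (colour), with members ordered from the highest to the lowest KO minus WT difference and black lines between genotypes. Neo1, Jam2, Clca3a1 and Selp are blue to pale in WT and mostly red in KO, and KO replicate 3 is blue for Nupr1, Ehd3, Osmr, Klhl4 and Ptger4.

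Some members were neighbours in the genome, which the list did not take into account. Rorb, Aldh1a1 and Gda follow each other on chromosome 19 with 1 and 4 protein-coding genes between them, and their KO minus WT differences were −0.50, −1.18 and 0.93. Ghr, Ptger4 and Osmr lie in this order on chromosome 15, with 11 and 4 protein-coding genes between. Of these, Ptger4 and Osmr both had their low KO value on replicate 3, and Ghr read 4.29, 4.78 and 4.58 on the KO arrays. Dnm3 and Selp are separated by 20 protein-coding genes on chromosome 1, with differences of 0.03 and 1.52.

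Other genes reported to be higher in old HSCs gave 13 tested genes outside the list. In KO cells 9 of them were higher than in WT (median 0.13) and in Het cells 11 (median 0.50). In each comparison 4 had an unadjusted p under 0.05, all on the higher side. Over all genes tested 45.5% were higher in KO and 48.4% in Het, and 5.4% and 3.12% were higher at that threshold. In KO minus Het 3 of the 13 were higher and 10 lower (median −0.18), where 47% of all genes were higher. Mllt3, a chromatin reader of HSC maintenance, read 8.05 ± 0.118 in WT, with means of 9.05 ± 0.211 (Het) and 9.59 ± 0.228 (KO; against WT adjusted p = 0.0566). Vwf, the von Willebrand factor of platelet-biased HSCs, read 5.55 ± 0.435, 6.28 ± 0.979 and 7.11 ± 0.50, and Fosb, an AP-1 subunit, 4.39 ± 0.395, 6.17 ± 0.782 and 6.23 ± 1.46. Slamf1, given above, was the fourth in KO, and in Het cells Slamf1, Mllt3, Fosb and Jun made up the 4. None passed over all genes. Of 11 lymphoid genes reported to be lower in old HSCs, 7 were tested. In KO 2 were higher and 5 lower (median −0.17), where 45.5% of all genes were higher. In Het 6 were higher and 1 lower (median 0.30), where 48.4% of all genes were higher. Flt3 was the gene with an unadjusted p under 0.05, at −1.06 in KO and −0.79 in Het. Over all genes 2.81% and 1.77% were lower at that threshold. Flt3 and Slamf1 are also genes of the sort. Of the 9 measured lymphoid genes, 4 read within the range of absent transcripts in all groups.

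Several members are also endothelial or platelet genes, so markers of those cells were read on the same arrays. All 8 endothelial markers listed were measured. Their mean level was 4.23 to 5.29 on WT, 4.98 to 5.58 on Het and 5.70 to 5.83 on KO arrays. WT replicate 1 read 4.23 and the other WT arrays 5.29 and 5.02. Where 45.5% of all genes were higher in KO than in WT, 6 of these markers were (median 1.16). Those included Pecam1 (5.49 ± 0.560 in WT, 6.43 ± 0.543 in Het and 7.46 ± 0.165 in KO), Kdr (3.75 ± 0.207, 4.45 ± 0.235 and 4.99 ± 0.814), Emcn, Tek, Tie1 and Esam, several of which HSCs express themselves. Cdh5, the cadherin of endothelial junctions, read 4.22 ± 0.283 in WT against 4.02 ± 0.40 in KO, and Ptprb 3.66 against 3.32. The KO mean of Cdh5, all Ptprb readings and the WT readings of Kdr (3.53 to 3.94) lay within the range of absent transcripts. Tie1 read 4.82, 7.09 and 6.68 in WT and 6.46, 7.32 and 6.64 in KO, so WT replicates 2 and 3 lay within its KO range. The part of these endothelial markers in the values of Jam2, Neo1 and Selp was not tested. In sorted populations of this kind, more cells of a type and more RNA per cell cannot be told apart. Markers of platelets and megakaryocytes (5 of 8 measured) had means of 5.44 to 6.33 on WT, 5.46 to 6.47 on Het and 5.40 to 6.50 on KO arrays, with Pf4 at 8.74 ± 0.790 in WT and 7.88 ± 1.16 in KO, and Ppbp at 3.97 ± 0.131 and 5.93 ± 1.55. Neutrophil markers (8 of 8) read 5.22 to 6.31 on WT, 4.62 to 6.24 on Het and 4.52 to 4.88 on KO arrays. In KO 1 was higher and 7 were lower than in WT, with a median of −0.485. S100a8 read 8.66 ± 0.282 in WT and 4.80 ± 2.26 in KO. Ltf (4.07 to 4.85 in WT, 4.31 to 4.54 in KO) and Elane (4.19 to 4.89 and 4.28 to 4.52) overlapped. The part of these markers in the member values was not tested either. Median KO minus WT differences of the other marker lists were −0.08 for stroma, 0.03 for macrophages, −0.45 for B cells, −0.17 for T and NK cells and −0.17 for erythroid cells, with no gene called. At an unadjusted limma p under 0.05, 1 T and NK marker was higher and 1 lower, and 1 macrophage marker was higher. Over all genes 5.4% were higher and 2.81% lower. Klrb1c read 3.77 to 4.95 in WT and 6.04 to 7.07 in KO, and Nkg7 5.96 to 7.87 and 4.81 to 5.08.

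**Figure D4:**
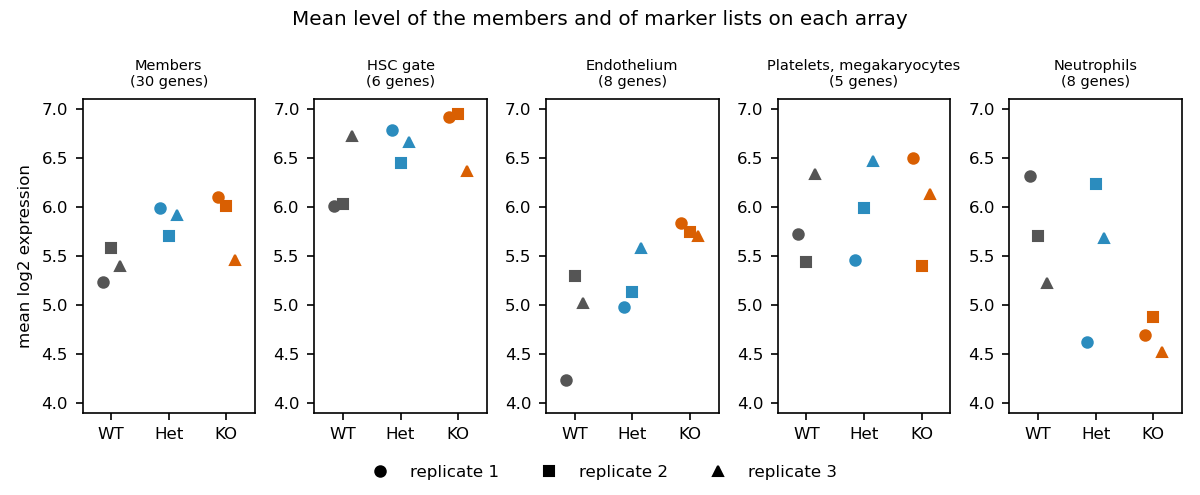
Mean log2 expression per array (vertical axis) of the 30 members tested and of 4 marker lists, by genotype, with marker shape for the replicate number. The members' mean on KO replicate 3 (5.46) lies among the WT arrays, the endothelial means do not overlap between WT (up to 5.29) and KO (from 5.70), and the neutrophil means are below 5 on all KO arrays.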

How the data were processed

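The values deposited by the authors are log2 expression levels per probe set of Affymetrix Mouse Gene 2.0 ST arrays, made with RMA, a tool named in the submitters' processing notes. No version, setting or build was stated for it there. Per the labels' protocols cDNA was amplified before labelling, which can add spread. RMA compresses differences of dim transcripts. Of 41345 probe sets, 23521 had 1 symbol, updated through gene identifiers for 23328. Each of 22180 genes was read from its probe set with the highest mean, and 5544 genes whose mean fell below the 25th percentile (3.31) were left out, keeping 16636. A linear model in limma 3.58.1 (R 4.3.3) took 1 mean for each genotype from the 9 arrays (6 residual and 4.26 prior degrees of freedom). Adjusted p-values are two-sided Benjamini-Hochberg values over the 16636 genes. Folds are powers of 2 of log2 differences. Simulated data with independent noise for each gene were used to check that the fit returned the differences put in. They held no effect shared by the genes of an array, so they cannot show how the test performs where an array deviates as a whole. The number of arrays limits the precision; the median standard error was 0.298 over all genes and 0.377 over the members. The labels call the replicates biological without naming animals.

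The members, lists and tests were chosen with earlier results of these data known. Every member is named. Values on all arrays are given for members with an unadjusted p under 0.05 in any comparison, or with WT arrays that do not overlap KO or Het arrays; genes outside the list are named where a result turns on them. Array values of Nupr1, Sult1a1, Gda and Ptger4, and Cdh5, Emcn, Tie1, Ptprb and Pf4 among the markers, were singled out after their values were seen. No test was made on the list as a whole. Deviations of same-numbered arrays correlated between −0.185 and 0.229, and those of different-numbered arrays between −0.16 and 0.196. With 3 arrays for each genotype these values cannot decide whether the numbers pair the arrays. Alternatives are in the closing section.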

Additional observations from a re-analysis of the deposited data

How the results depend on the processing

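Across 20 other settings the median KO minus WT difference of the members stayed between 0.19 and 0.56, Het minus WT between 0.29 and 0.54 and KO minus Het between −0.23 and 0.11, and none moved by more than the spread of the members' mean between replicates (SD 0.241). The lowest KO value, 0.19, came when each array's interquartile range entered the fit. Over the arrays this range ran from 2.22 to 2.83 and the median from 3.95 to 4.15. The cause of the lower value was not tested. The number of members called over all genes was 0 in all 3 comparisons and settings, except that leaving out arrays in turn gave 0 to 1 for KO minus WT: without KO replicate 3, Neo1 differed by 3.21 (adjusted p = 0.0306). Over the settings the smallest adjusted p of any member ranged from 0.0306 to 0.423 for KO minus WT, from 0.216 to 0.999 for Het minus WT and from 0.437 to 1.0 for KO minus Het. Over all genes the count called for KO minus WT was 7, but 24 with array weights, 4 with a filter at the median level, 3 after quantile normalization or with sex as a term, 1 with those genotypes alone, 0 with the interquartile range or the replicate block, and 0 to 15 on leaving out arrays. None of the 19 member differences with an unadjusted p under 0.05 reversed. They were picked for a small p on these same arrays. Where 2 groups do not overlap, leaving out an array cannot turn the sign, so the lack of reversals says little about them. Among the others, leaving out WT replicate 1 or KO replicate 3 turned the sign of KO minus WT for Gda (0.93 to −0.16), Mt1 (0.37 to −0.30), Clu (−0.23 to 0.22) and Dnm3 (0.03 to −0.04), and leaving out WT replicate 1 turned that of Het minus WT for Gda (0.89 to −0.20), Exoc6b (0.18 to −0.32), Cavin2 (0.23 to −0.09), Osmr (−0.11 to 0.13), Zswim5 (0.02 to −0.03) and Rorb (−0.0033 to 0.10). Leaving out WT replicate 3 took the count of members higher in KO than in WT from 22 to 19. For Het minus WT it took that count from 23 to 21. Members whose sign turned on leaving out arrays other than WT replicate 1 and KO replicate 3 are not listed here. Osmr had no KO minus Het value with a filter at the median level, under which it lay. With the replicate number as a block, medians were 0.37 (KO minus WT), 0.43 (Het minus WT) and −0.01 (KO minus Het). No member was called, and the block changed no call of a member. Whether the numbers pair the arrays could not be decided. A difference between the sexes in KO minus WT or Het minus WT could not be judged. KO replicate 3 and Het replicate 3 were the female arrays of their genotypes, and WT replicate 2 was the male WT array. Such a difference cannot be told apart from a deviation of these single arrays, and no result is drawn from it. Levels up to 4.22 cannot be told from absent transcripts, which touches Trpc1, Rorb, Runx1t1 and Bmpr1a in all genotypes, Osmr and Zswim5 in WT and Het, and Ehd3 in WT.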

Other observations

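Mt1, Osmr and Trpc1, singled out after their values were seen, separated the arrays by replicate number across all 3 genotypes. On the arrays numbered 3, Mt1 read 8.32 (WT), 9.26 (Het) and 8.82 (KO), against 6.15 to 7.05 on the other 6 arrays. Osmr read lower on the arrays numbered 3 (2.70, 2.70 and 3.08) than on any other. Trpc1 read higher on the arrays numbered 1 (3.74, 3.76 and 3.9) than on any other, of which the nearest read 3.70. These low Osmr readings and all Trpc1 readings lay within the range of absent transcripts. Arrays numbered 3 were all above the other 6 for 1.24% of the genes tested and all below them for 1.05%, and arrays numbered 1 were all above for 0.691%. Each of these classes held 1 of the 30 members. No member was in the other classes, which were arrays numbered 1 all below (0.631% of genes) and arrays numbered 2 all above (0.553%) or all below (0.824%). The arrays numbered 3 were all from female mice, and the fourth female array, WT replicate 1, read 6.83 for Mt1 and 3.75 for Osmr. What the numbers mark besides the replicate is not given in the labels.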
